A study of Mus musculus with 24 samples.

Results

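Hypothalamic gene expression was compared between ob/ob mice treated with regular γ-oryzanol and ob/ob mice given its vehicle, methylcellulose. The comparison rests on 6 of the 24 arrays of the series, 3 treated (Orz 1 to Orz 3) and 3 vehicle (Veh 1 to Veh 3), chosen by the tissue and treatment in their labels. It is described across all 18194 genes that a probe set with 1 gene symbol represents. All mice were male, carried the ob/ob genotype, had free access to food and were 9 weeks old when tissue was taken, after 4 weeks of oral treatment. The remaining arrays hold the nanoparticle arm in hypothalamus and both arms in liver.

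The ob mutation removes functional leptin, so both groups lacked the fat-derived hormone that restrains feeding through the hypothalamus, and lean mice had no arrays in the series. Each array is labelled as a biological replicate, and the study's methods say that 3 mice representative of their group were chosen. The hypothalamus lies below the thalamus and above the pituitary, and many of its neurons release peptides. Some of these reach the blood through the posterior pituitary, some act on the anterior pituitary, and others control appetite, arousal and daily rhythm. γ-Oryzanol is a mixture of ferulic acid esters from rice bran, and the study asked whether it acts on stress of the endoplasmic reticulum (ER) in this tissue.

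The values are log2 signals that the distribution free weighted method (DFW) computed from the probes. They ran from 5.30 to 14.8, with a median of 7.27. DFW drew the arrays close together, and 98.998% of the 45101 probe sets spanned less than 0.001 over the 6 arrays. Differences are therefore given in milliunits, where 1 milliunit is 0.001 of a log2 DFW unit, as treated minus vehicle with the standard error from limma. They order genes and are no fold changes. The value of a single array is its deviation from the vehicle mean of that gene, in milliunits.

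The labelled tissue was checked first. The vehicle mean on the log2 scale was 13.4 for Pmch (melanin-concentrating hormone), 12.4 for Avp (vasopressin), 11.5 for Hcrt (orexin), 11.4 for Oxt (oxytocin) and 9.88 for Npy (neuropeptide Y). In the liver arrays, which appear to have been quantified separately, the same genes had means of 6.34, 6.63, 6.78, 8.03 and 6.87. All 5 were far above liver, as were Trh (thyrotropin-releasing hormone), with 8.93 against 6.37, and Pomc (pro-opiomelanocortin), with 8.33 against 6.65. Agrp, another defining peptide, had no probe set with 1 symbol.

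Single arrays carried patterns of their own. Across the 18 measured genes of the thalamus list, Orz 3 was the highest array for 18 and Orz 2 the lowest for 17. Orz 2 was also the lowest for 15 of 19 oligodendrocyte genes and 9 of 12 neuron genes. Veh 3 was the lowest array for 18 of 19 meningeal genes, 13 of 15 glucocorticoid-responsive genes and 11 of 15 endothelial genes, and the highest for 19 of 22 liver plasma protein genes. The plot of mean ranks by list shows these columns. In bulk tissue, fewer cells of a type and less RNA per cell cannot be told apart, and the part of tissue composition in the results was not tested.

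**Figure D1:**
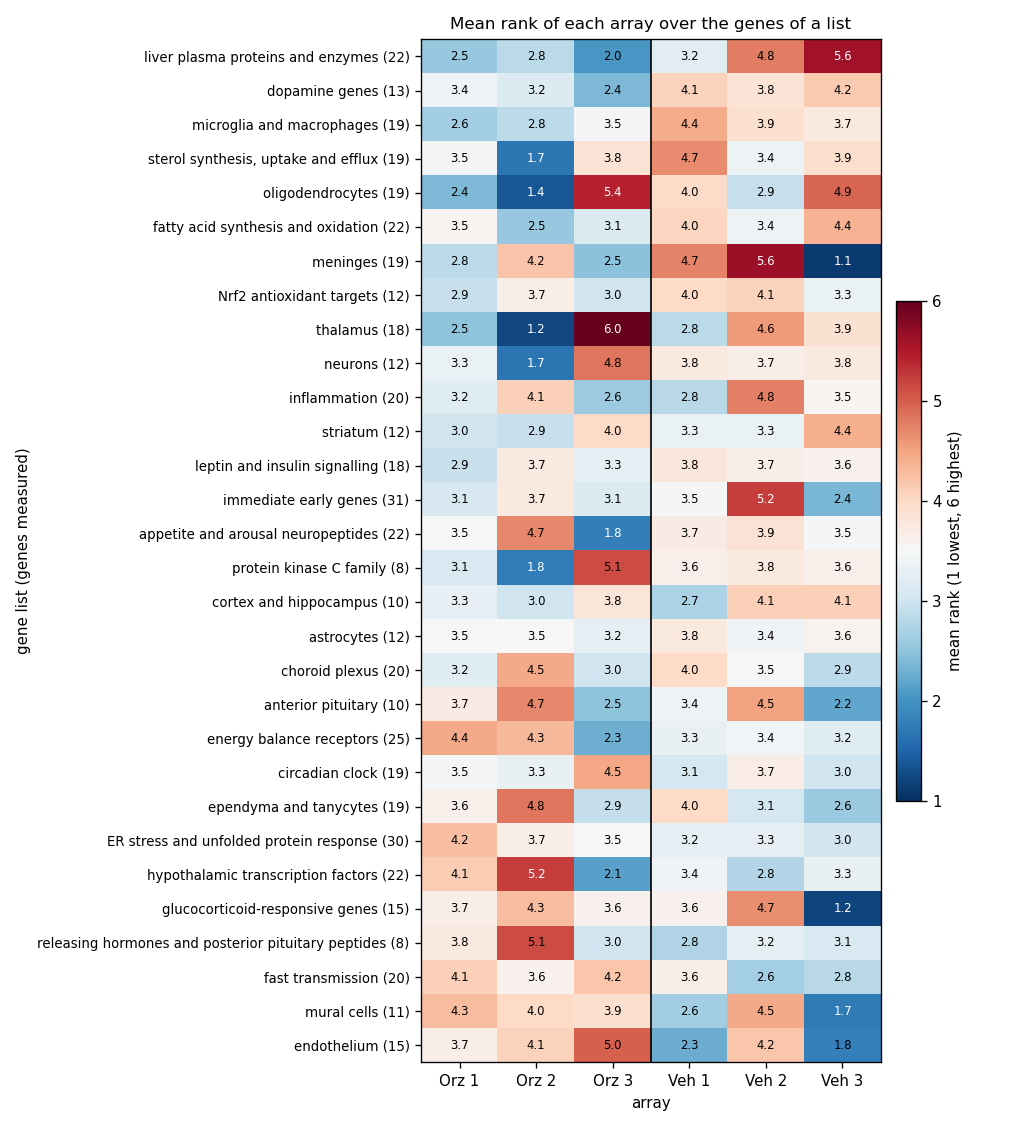
Each cell gives the mean rank of 1 array among the 6 (1 lowest, 6 highest) over the measured genes of a list; lists with few measured genes are left out. Orz 2 and Orz 3 lie at opposite ends for the thalamus list, and Veh 3 is lowest for meningeal and glucocorticoid-responsive genes.

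Differential expression was called by rank product, the method that the study names. It ranks all probe sets in each of the 9 treated and vehicle pairs and estimates a proportion of false positives (pfp) from permuted values. At pfp under 0.05, 75 probe sets were up-regulated (0.166%) and 173 were down-regulated (0.384%). Among the genes, 28 were called higher (0.154%) and 43 lower (0.236%), 0.39% in either direction. The treated and vehicle arrays did not overlap in 19 of the 28 and in 15 of the 43. Over all genes, 5.03% had every treated array above every vehicle array and 5.19% had every one below, and over all probe sets the shares were 5.87% and 5.04%.

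Rank product orders raw differences, so probe sets that vary widely reach its ends. Of the called probe sets, 154 (62.1%) lay among the 1% with the widest spread within groups. limma, which sets a difference against that spread, called 0 probe sets after Benjamini-Hochberg adjustment, with a smallest adjusted p of 0.456. At an unadjusted limma p under 0.05 it counted 2563 probe sets (5.68%) and 4.96% of genes. No single gene can pass an exact permutation test here, since 3 arrays against 3 allow no two-sided p below 0.1. The plot of difference against spread shows the called genes at its wide end.

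**Figure D2:**
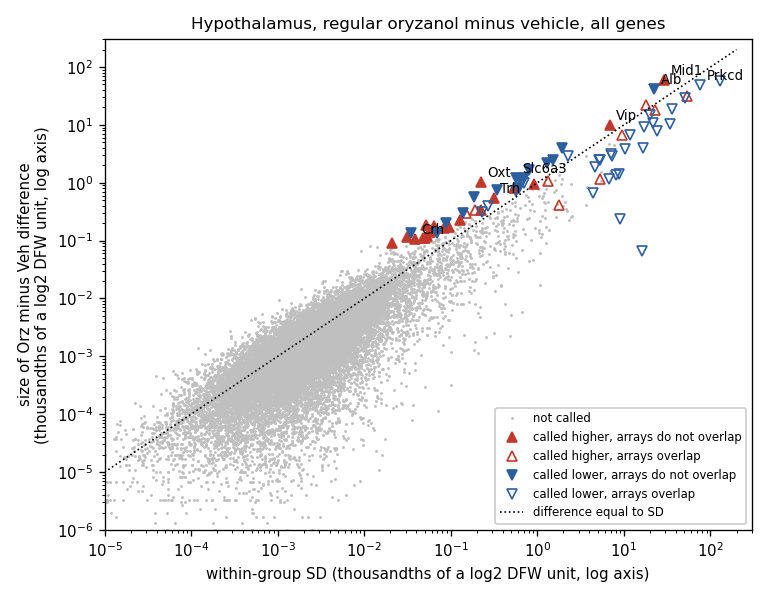
Each point is 1 gene, with the SD within groups on the horizontal axis and the size of the treated minus vehicle difference on the vertical axis, both in thousandths of a log2 DFW unit on log axes; genes with a value of 0 are not drawn. Called genes (triangles) lie where both values are large, filled triangles mark genes whose arrays did not overlap, and the dotted line marks a difference equal to the SD.

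The calls moved with single arrays. Leaving out Orz 3 raised the number of probe sets called lower from 173 to 453, and leaving out Orz 2 raised it to 262. It was 73 without Orz 1, 56 without Veh 1, 32 without Veh 2 and 24 without Veh 3. The number called higher fell from 75 to 12, 16 and 15 without Orz 1, Orz 2 and Orz 3, and to 42 without Veh 2. In all 6 sets of 5 arrays, 4 probe sets stayed called higher (Mid1, Erdr1, Oxt and Vip) and 16 stayed called lower, among them those of Alb, Car3, Prkcd, Malat1 and Ntrk2.

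**Figure D3:**
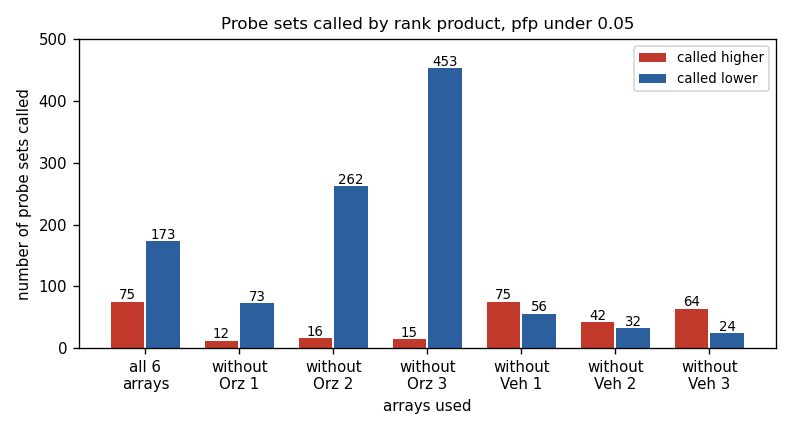
Bars give the number of probe sets called higher (red) and lower (blue) by rank product with all 6 arrays and with each array left out. Lower calls range from 24 to 453 and higher calls from 12 to 75.

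Among the genes called higher were 4 secreted hypothalamic peptides. Oxt, Trh, Crh and Vip were called higher, and in each the 3 treated arrays lay above the 3 vehicle arrays. Their products are oxytocin, which acts in birth, lactation and feeding, thyrotropin-releasing hormone, corticotropin-releasing hormone and vasoactive intestinal peptide, a transmitter of the suprachiasmatic clock. The 250 bases upstream of the start sites of Oxt (chr2:130575919-130576168, plus strand), Trh (chr6:92244651-92244900, minus strand) and Vip (chr10:5638968-5639217, plus strand) are shown because these genes moved in 1 direction, from RefSeq on build GRCm38.p6. Capitals mark TGACG on either strand, the half-site of the cAMP response element. The share of 32851 such windows that hold it was 17.8%, and the share with the whole element, TGACGTCA, was 1.55%.
Oxt: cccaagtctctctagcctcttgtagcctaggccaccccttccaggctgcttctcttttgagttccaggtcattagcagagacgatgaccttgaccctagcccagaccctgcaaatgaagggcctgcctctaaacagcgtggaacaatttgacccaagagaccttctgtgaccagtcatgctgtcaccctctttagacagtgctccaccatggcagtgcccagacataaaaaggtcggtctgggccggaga
Trh: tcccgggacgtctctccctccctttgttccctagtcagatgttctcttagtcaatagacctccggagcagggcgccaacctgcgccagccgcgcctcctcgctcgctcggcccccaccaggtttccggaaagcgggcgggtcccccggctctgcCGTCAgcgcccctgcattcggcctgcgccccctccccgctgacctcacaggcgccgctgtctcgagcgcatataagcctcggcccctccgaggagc
Vip: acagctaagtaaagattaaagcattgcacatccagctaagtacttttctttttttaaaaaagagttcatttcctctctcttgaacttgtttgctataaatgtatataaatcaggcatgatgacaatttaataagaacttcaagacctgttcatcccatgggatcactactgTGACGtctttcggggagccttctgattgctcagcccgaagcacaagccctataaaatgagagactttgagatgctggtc
Trh and Vip held 1 half-site each, 91 and 74 bases before the start, and Oxt held none. None of the 3 windows held the whole element. The sources used here held no upstream sequence for Crh, so its window was not searched and nothing is stated about it. A match describes the letters, and nothing was measured at these sites.

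Oxt had the steadiest difference of the 4 peptides by sets of 5 arrays. Its deviations were 0.786, 1.33 and 0.967 milliunits in Orz 1, Orz 2 and Orz 3, against -0.165, 0.138 and 0.0273 in Veh 1, Veh 2 and Veh 3. All treated arrays stood well above the vehicle arrays, which lay close together. The difference was 1.03 ± 0.168 (SE, n = 3 per group), with a limma adjusted p of 0.774. Without 1 array it lay between 0.876 and 1.15, and the call was kept each time. After quantile normalization the difference was 0.513 and Oxt was no longer called. Avp, a related posterior pituitary peptide gene, had overlapping arrays. It deviated by 0.0381, 0.529 and -0.2897 in the treated arrays and by 0.0698, 0.171 and -0.2403 in the vehicle arrays, and it was not called.

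Vip had a larger difference, 10.1 ± 5.16 milliunits, on a log2 signal of 6.71. The treated arrays deviated by 8.04, 12.1 and 10.3 and the vehicle arrays by 3.11, -10.6 and 7.49. The groups did not overlap, but Veh 2 lay far below the other vehicle arrays and Veh 3 close to the lowest treated array. The difference was 4.85 without Veh 2, and the call was kept whichever array was left out.

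Trh and Crh were called with less margin. Trh deviated by 0.3496, 0.975 and 0.307 in the treated arrays against 0.232, -0.238 and 0.00652 in the vehicle arrays, a difference of 0.544 ± 0.236 milliunits. Orz 2 carried much of it, since the difference was 0.328 without that array, and the call was lost without Orz 1 or Orz 2. Crh, whose product starts the hormonal stress response, deviated by 0.0892, 0.09999 and 0.132 against -0.0544, 0.0116 and 0.0428. Its difference of 0.107 ± 0.0290 was even across arrays, yet the call was lost in 5 of the 6 sets of 5 arrays. Of the 8 measured releasing hormone and posterior pituitary genes, 3 were called higher and 0 lower, against 0.154% and 0.236% of all genes. The list went to both ends, with 5 genes in the highest 5% of all genes and 3 in the lowest. In 1 of them every treated array lay below every vehicle array. The median difference of the list was 0.0624 milliunits, against -2.92e-05 over all genes. Ghrh (growth hormone-releasing hormone) and Sst (somatostatin), which act on growth hormone in opposite ways, had differences of -0.0134 and -0.0125 and were not called.

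**Figure D4:**
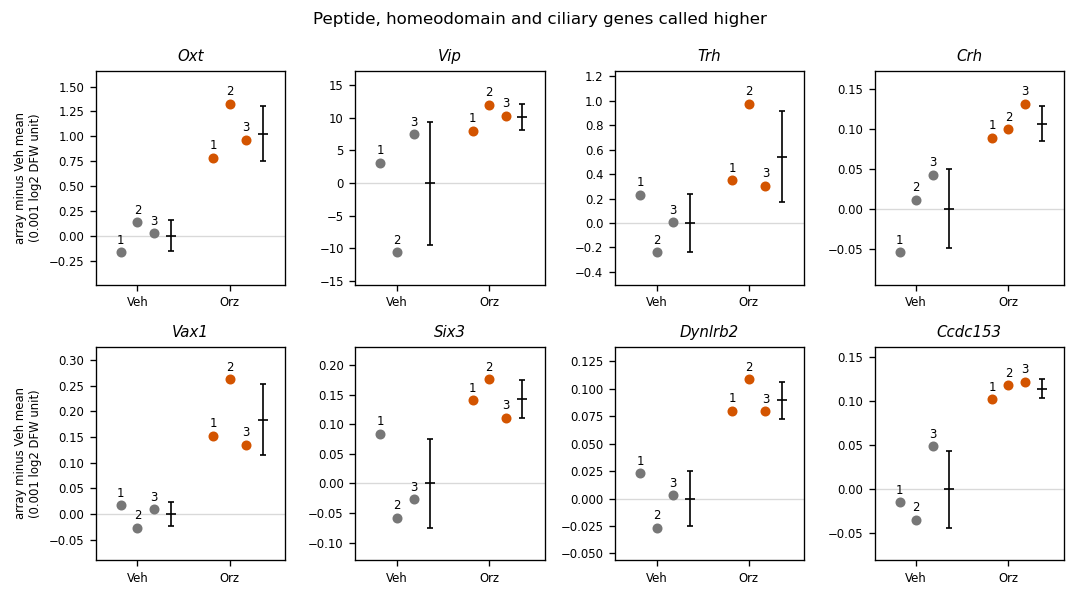
Points are single arrays (1 to 3) as deviation from the vehicle mean in thousandths of a log2 DFW unit, grey for vehicle and orange for γ-oryzanol; black marks give the mean and SD of each group. In all 8 genes the treated arrays lie above the vehicle arrays, closely so for Vip and Trh.

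Among the appetite and arousal peptides, Vip alone of 22 measured genes was called higher and Cck alone lower, against 0.154% and 0.236% of all genes. In the list 16 genes had a negative and 6 a positive difference, 8 lay in the lowest 5% of all genes and 3 in the highest, and the median difference stood at percentile 17.5, against 50.0 over all genes. Orz 3 was the lowest array for 16 of them and Orz 2 the highest for 10. Npy, which drives feeding, deviated by 0.114, 0.927 and -1.35 milliunits in the treated arrays and by 0.1398, 0.205 and -0.345 in the vehicle arrays. Pomc, the source of the satiety peptide α-MSH, deviated by -0.217, 0.744 and -0.821 against 0.0505, 0.0474 and -0.0979. In both, Orz 2 was the highest array and Orz 3 the lowest, and the vehicle arrays lay between them. The mean differences were -0.102 ± 0.636 and -0.0977 ± 0.424, neither called. Hcrt and Pmch, peptides of the lateral hypothalamus, differed by -0.0323 and -0.000950 with overlapping arrays.

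Cck (cholecystokinin) was called lower at -2.43 ± 3.899 milliunits. It deviated by -3.63, -8.82 and 5.17 in the treated arrays and by 0.0403, 1.77 and -1.81 in the vehicle arrays. Orz 3 was its highest array and Orz 2 its lowest, the order of the thalamus genes. Without Orz 2 the difference turned to 0.772, and the call was lost in 5 sets of 5 arrays. Bdnf, a growth factor that restrains feeding in this tissue, was not called but was lower in every treated array, as were 5.19% of all genes. It deviated by -0.0234, -0.0148 and -0.0238 against -0.004198, 0.00511 and -0.000914.

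Receptors of energy balance gave no call, where 0.39% of all genes were called in either direction. Of 25 measured, 15 had a positive and 10 a negative difference, and Orz 3 was the lowest array for 15. In the list 8 genes lay in the highest 5% of all genes and 2 in the lowest. The median difference stood at percentile 64.2, against 50.0 over all genes. Cnr1, the cannabinoid receptor, and Ghr, the growth hormone receptor, were higher in every treated array, by 0.0239 and 0.0203 milliunits. Lepr, the leptin receptor, differed by -0.000962. The 18 genes of leptin and insulin signalling also gave 0 calls. Among them Prkaa1, a catalytic subunit of the energy sensor AMPK, was higher in every treated array. Akt1, Sh2b1 and Ptpn1 were lower in every one, Akt1 by the most with -0.001497 milliunits. For both lists of this paragraph, the shares of all genes higher and lower in every treated array were 5.03% and 5.19%.

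Of 22 transcription factors that mark hypothalamic neurons, Vax1 and Six3 were called higher and Lhx9 lower, against 0.154% and 0.236% of all genes. Vax1 and Six3 are homeodomain factors of the ventral forebrain. Vax1 deviated by 0.152, 0.262 and 0.135 milliunits in the treated arrays and by 0.0169, -0.02595 and 0.00909 in the vehicle arrays, a difference of 0.183 ± 0.0388. Six3 deviated by 0.141, 0.176 and 0.112 against 0.0841, -0.0577 and -0.0265, a difference of 0.143 ± 0.0434 that neither of its other probe sets shared in sign. Orz 2 was the highest array in both. Each call was lost without any 1 of the treated arrays, although the difference stayed positive. Across the list Orz 2 was highest for 12 genes and Orz 3 lowest for 12, opposite to the thalamus list. Lhx9 was called lower on a mean difference of -0.0649, with Orz 1 and Orz 2 at -9.75 and -16.2 and Orz 3 at 25.8.

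The list of ependymal and tanycyte genes, cells that line the third ventricle, went in both directions. Of 19 measured genes, 2 were called higher and 0 lower, against 0.154% and 0.236% of all genes. The difference was positive in 9 and negative in 10. In 4, every treated array lay above every vehicle array, against 5.03% of all genes. These 4 genes, which were thus chosen for being higher, are described first. Ccdc153 deviated by 0.102, 0.119 and 0.122 milliunits in the treated arrays against -0.0144, -0.0343 and 0.0487, and was called higher at 0.114 ± 0.0238. Dynlrb2, a dynein light chain, was called higher at 0.0896 ± 0.01602, with treated deviations of 0.08005, 0.109 and 0.0799. Tmem212 was not called, but its treated arrays at 0.0715, 0.0893 and 0.0819 lay above vehicle arrays at -0.000168, -0.0137 and 0.0138. Ak7, an adenylate kinase of cilia, was likewise higher in every treated array, by 0.0297. The calls were fragile, since Ccdc153 lost its call in 5 sets of 5 arrays and Dynlrb2 in all 6. Foxj1, the factor that drives motile cilia, and Tekt1, a ciliary tektin, differed by -3e-06 and 0.00379 with overlap. The tanycyte genes Rax, Crym and Col23a1 differed by -0.008702, -0.00634 and -0.03902 with overlapping arrays.

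Thalamus genes spread widely among the treated arrays. Of the 18 measured, 10 were called lower and Zic4 was called higher, against 0.236% and 0.154% of all genes. None of the 10 had all treated arrays below the vehicle arrays. Prkcd, protein kinase C delta, deviated by -50.7, -154 and 57.3 milliunits in Orz 1, Orz 2 and Orz 3, and by -11.01, 14.98 and -3.97 in Veh 1, Veh 2 and Veh 3. Orz 2 was the lowest and Orz 3 the highest array, both far outside the vehicle range. Its difference of -49.3 ± 56.99 turned to 3.30 without Orz 2 and reached -103 without Orz 3, and the lower call was kept whichever array was left out.

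Orz 2 was the lowest and Orz 3 the highest array for 17 of the 18 genes, all but Zic4, whose treated arrays all lay above the vehicle arrays. Tcf7l2, a Wnt effector that marks thalamic neurons, deviated by -9.08, -33.5 and 14.7 milliunits in the treated arrays and by -2.302, 1.39 and 0.915 in the vehicle arrays. Synpo2 differed by -29.3 ± 38.6, Ramp3 (a co-receptor of the calcitonin family) by -15.1 ± 14.98, Tnnt1 (a troponin) by -10.5 ± 25.8 and Ntng1 (netrin G1) by -3.16 ± 5.36. In each of these the SE was close to the size of the difference or above it. Without Orz 2 the differences of Tcf7l2, Synpo2, Tnnt1 and Ntng1 turned to 2.83, 6.53, 14.8 and 1.46, and that of Ramp3 was -0.918. The mean level of the list deviated by -7.77, -27.5 and 13.9 milliunits in the treated arrays, and by -2.29, 2.56 and -0.269 in the vehicle arrays. Without Orz 3, 14 thalamus genes were called lower, and without any other single array only 1 or 2.

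Shox2 and Gpr151, which are in no list, were named after their values were seen. Shox2 had the lowest difference of all called genes, -58.2 milliunits, with treated arrays at -57.2, -238 and 120.4 and vehicle arrays at -18.9, 24.1 and -5.18, the order of the thalamus genes. Gpr151, a receptor of habenular neurons, was called higher at 18.3 and stood at 55.8 in Orz 3 but between -1.62 and 0.852 in the other 5 arrays. Rora, a nuclear receptor that is in the clock list as well as among the 10 thalamus genes called lower, followed the thalamus order and was called lower at -1.88 ± 3.52 and turned to 1.14 without Orz 2. Per2 and Per3, core clock genes, were not called but were higher in every treated array, by 0.0112 and 0.0133. In the clock list 3 of 19 genes were higher in every treated array, against 5.03% of all genes.

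**Figure D5:**
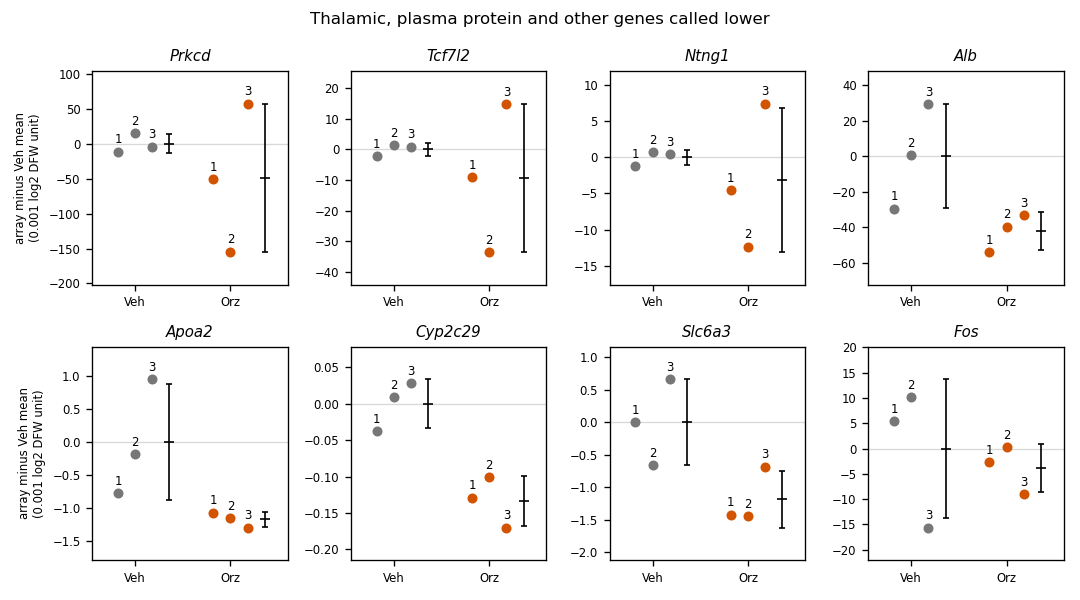
Points are single arrays (1 to 3) as deviation from the vehicle mean in thousandths of a log2 DFW unit, grey for vehicle and orange for γ-oryzanol; black marks give the mean and SD of each group. Prkcd, Tcf7l2 and Ntng1 show treated arrays on both sides of the vehicle arrays, while Alb, Apoa2, Cyp2c29 and Slc6a3 show treated arrays below them.

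Genes whose products the liver secretes or uses were called lower in the hypothalamus. Of 22 measured, 8 were called lower and 0 higher, against 0.236% and 0.154% of all genes. Every treated array lay below every vehicle array in 10, against 5.19% of all genes. Alb (albumin) deviated by -54.05, -39.7 and -33.2 milliunits in the treated arrays and by -29.7, 0.373 and 29.3 in the vehicle arrays, on a log2 signal of 6.57 against 14.8 in liver. The treated arrays lay below all vehicle arrays, which spread more widely with Veh 3 on top. The difference was -42.3 ± 16.8, and -27.6 without Veh 3, where the call was kept.

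Other genes of the list showed the same side with smaller values. Apoa2, an apolipoprotein of high-density lipoprotein, deviated by -1.07, -1.15 and -1.297 against -0.775, -0.1797 and 0.955. Its difference of -1.17 ± 0.473 was -0.696 without Veh 3, and the call was lost without Veh 2 or Veh 3. Cyp3a11, a drug-metabolizing cytochrome, differed by -2.49 ± 1.14, Serpina1b and Serpina1c (α1-antitrypsins, near-identical copies that probes may not separate) by -2.94 ± 1.71 and -2.17 ± 0.975, and Fabp1 (liver fatty acid binding protein) by -0.748 ± 0.259. Without Veh 3 the differences of Cyp3a11, Serpina1b and Serpina1c were -1.31, -1.29 and -1.17, and all 3 calls were lost, that of Serpina1b also without Veh 2. These Serpina1b values are from its brightest probe set. Its other probe set was called lower at -10.7 with no overlap, and that call was kept in all 6 sets of 5 arrays. The call of Fabp1 was lost without Veh 2 or Veh 3. Cyp2c29, another cytochrome, had treated arrays at -0.129, -0.101 and -0.1701 against -0.0375, 0.00932 and 0.0282. Its difference of -0.133 was -0.119 without Veh 3, but its call was lost without Orz 1 or any 1 of the vehicle arrays. Car3, Acaa1b and Bhmt, which were not in the list, were called lower at -4.03, -1.65 and -1.21 with no overlap. Without Veh 3 the differences were -2.47, -1.05 and -0.663, and the calls of Acaa1b and Bhmt were lost. The call of Bhmt was also lost without Veh 2. Car3 encodes a carbonic anhydrase, Acaa1b a peroxisomal thiolase and Bhmt a methyltransferase of homocysteine.

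The calls of the liver list moved with the vehicle arrays. With all arrays 8 genes of the list were called lower, against 1 when Veh 3 was left out and 3 when Veh 2 was left out. Over the list 21 genes had a negative difference, with a median of -0.0617 milliunits. The mean level of the list deviated by -2.95, -2.25 and -1.96 milliunits in the treated arrays and by -1.696, -0.0715 and 1.77 in the vehicle arrays. The treated arrays were lower with no overlap, but Alb, at -42.3, had by far the largest difference and weighs most in this mean. Mean ranks, in which genes weigh alike, were 2.55, 2.82 and 2.05 in the treated arrays and 3.23, 4.77 and 5.59 in the vehicle arrays. The part of blood or of liver RNA in these signals was not tested. In the nanoparticle arm, which has its own vehicle, 0 of the list were called lower.

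Several gene groups followed Veh 3. Fos, the immediate early transcription factor, was called lower at -3.78 ± 7.75 milliunits with treated arrays at -2.74, 0.323 and -8.94 and vehicle arrays at 5.38, 10.2 and -15.6. Its lowest array was thus a vehicle array. The difference turned to 1.33 without Veh 2 and was -11.6 without Veh 3. Of 31 immediate early genes, Fos alone was called, against 0.39% of all genes in either direction. In that list 22 genes had a negative difference and Veh 2 was the highest array for 16. Sgk1, a kinase induced by glucocorticoids, was called lower although its mean difference was 0.661, with Veh 3 at -6.97 and Veh 2 at 4.904. It is 1 of 3 genes, with Bpifa1 and Pisd-ps3, whose call went against the sign of the mean.

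The anterior pituitary gene Cga, the common subunit of the glycoprotein hormones, showed the same dependence. It was called higher at 31.6 ± 40.5 milliunits, with treated arrays at 36.4, 49.5 and 8.99 and vehicle arrays at 46.5, 37.6 and -84.1. Without Veh 3 the difference was -10.4. Cga alone was called among 10 pituitary genes, against 0.39% of all genes in either direction. Of 19 meningeal genes 0 were called, 10 had a positive and 9 a negative difference.

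Vascular genes mostly had positive differences. Of 15 endothelial genes 14 did, and Flt1, a receptor for vascular endothelial growth factor, was called higher at 0.122 ± 0.0402. Its treated arrays stood at 0.187, 0.0611 and 0.118 and its vehicle arrays at 0.0205, 0.0269 and -0.0474, with no overlap, and the call was lost in 5 sets of 5 arrays. Of 11 mural genes 9 had a positive difference, and Acta2 (smooth muscle actin) was called higher at 0.342 ± 0.143 with overlapping arrays. Veh 3 was the lowest array for 11 of the endothelial and 8 of the mural genes. Among 20 choroid plexus genes, 8 had a positive and 12 a negative difference. Sostdc1 was called higher at 0.224 ± 0.0959, which was 0.138 without Orz 3, and the call was lost in 4 of the 6 sets of 5 arrays. Ttr (transthyretin), which defines that epithelium, differed by -1.51 with overlap on its brightest probe set, which was not called. Another of its 4 probe sets was called lower at -1.22, also with overlap, and a probe set of Ttr was called lower in the nanoparticle arm too.

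A separate group of lower calls came with Orz 1. It was the lowest array for 121 of the 173 probe sets called lower (69.9%), against 16.0% of all probe sets, and 52 of the 121 were still called without it. Of the 98 of these with a symbol, 87 (88.8%) were not the brightest probe set of their gene, against 48.0% of all probe sets with a symbol. A probe set of Malat1, a long nuclear RNA, stood at -73.97, -3.94 and -9.398 milliunits in the treated arrays and between -3.22 and 3.19 in the vehicle arrays. A probe set of Ntrk2, the BDNF receptor, stood at -18.7, -0.828 and -4.74 and was called lower, while the brightest probe set of that gene differed by 0.00445 and was not called. Both genes were named after their values were seen. The control probe sets for the 5′ end and the middle of 18S ribosomal RNA were also called lower, with Orz 1 at -127 and -97.6 milliunits. Orz 2 stood at 27.7 and 27.1 and Orz 3 at 17.1 and 6.56. These lay within the vehicle arrays, which ran from -40.9 to 41.6 and from -34.8 to 40.6. The control for the 3′ end was at -0.665 in Orz 1. The controls for Gapdh and actin were not called. The part of RNA quality in these calls was not tested.

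The signalling molecules that recur most in the study's pathway table fall into these same patterns. That table was made from the study's own calls on these samples, so the list is not independent evidence of its direction. Of 7 measured, Fos, Prkcd and Prkch were called lower on their brightest probe set, against 0.236% of all genes. Prkch, protein kinase C eta, deviated by -2.28, -10.1 and 5.01 in the treated arrays, the order of the thalamus genes. For Plcb1, Plcb4 and Sos1, which act in receptor signalling, and for Crebbp, a transcriptional coactivator, a dimmer probe set was called lower at -1.07, -0.3502, -0.492 and -0.554 milliunits, and Orz 1 was its lowest array. Their brightest probe sets differed by 0.000967, -0.0279, 0.00429 and 0.00104 and were not called. Crebbp was higher in every treated array by its brightest probe set and lower in every treated array by the called one.

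ER stress genes gave no call. Of 30 measured, 0 were called, against 0.39% of all genes in either direction. The difference was positive in 22 and negative in 8. Its median was 0.000542 milliunits, at percentile 68.5 against 50.0 over all genes. Of the list, 3 genes lay in the highest 5% of all genes and 0 in the lowest. Ddit3 (CHOP), a death-promoting factor of the unfolded protein response, deviated by 8.87e-05, -0.000242 and 0.0008697 in the treated arrays and by -0.00173, 0.000736 and 0.000991 in the vehicle arrays. The groups overlapped, with a difference of 0.000239 ± 0.000912. Dnajb9 (ERdj4), a partner of ER chaperones, and Xbp1, a transcription factor of the response, differed by 8.33e-05 and 0.000263, also with overlap. Hsp90b1, an ER chaperone, was higher in every treated array by 0.00684, as were 5.03% of all genes. Pdia4, a disulfide isomerase, had the widest difference of the list, 0.0518, with overlap.

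Inflammatory genes gave 0 calls among 20, against 0.39% of all genes in either direction. No gene of that list had arrays without overlap, against 5.03% of all genes in the higher and 5.19% in the lower direction. Tnf deviated by -8.33e-05, 0.000294 and -0.000712 in the treated arrays and by -0.000772, 0.001401 and -0.000628 in the vehicle arrays. Ccl2 (MCP-1), a chemokine for monocytes, differed by -0.00447 ± 0.00796, with Orz 2 highest and Orz 3 lowest. Of 19 microglial and macrophage genes 13 had a negative difference and 0 were called. Within that list C1qc, Tyrobp and Cx3cr1 were lower in every treated array, with differences of -0.00579, -0.00399 and -0.00276. Over all genes, 5.19% were lower in every treated array.

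Lipid genes and myelin genes were mostly below vehicle without a call. Of 19 sterol genes 15 had a negative difference. Fdps, Insig1 and Srebf2, which act in or control cholesterol synthesis, were lower in every treated array, with differences of -0.0164, -0.00834 and -0.00377. The share of all genes that were lower in every treated array was 5.19%. Of 22 genes of fatty acid synthesis and oxidation 17 had a negative difference, and Fasn, the fatty acid synthase, differed by -0.0239 with overlap. Of 19 oligodendrocyte genes 18 had a negative difference and 12 lay in the lowest 5% of all genes, but 0 were called. Mag, a myelin protein, deviated by -0.203, -0.169 and 0.0233 against -0.0606, -0.05099 and 0.112, so Orz 3 lay within the vehicle range. Orz 2 was the lowest array for 11 of the sterol genes as for 15 of the oligodendrocyte genes. Without Orz 3, 7 oligodendrocyte genes were called lower.

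Among dopamine genes, Slc6a3, the dopamine transporter, was called lower at -1.19 ± 0.423 milliunits. It deviated by -1.42, -1.45 and -0.685 in the treated arrays and by 0.00452, -0.663 and 0.659 in the vehicle arrays, so Orz 3 and Veh 2 almost met. The call was lost without Veh 1 or Veh 3. Of 13 measured dopamine genes, 1 was called lower and 0 higher, against 0.236% and 0.154% of all genes. The difference was negative in 10 and positive in 3, with a median at percentile 8.06. In the list 5 genes lay in the lowest 5% of all genes and 1 in the highest. In 2, every treated array lay below every vehicle array, against 5.19% of all genes. Th, the enzyme that starts dopamine synthesis, differed by -0.0157 and Ddc, the enzyme that follows it, by 0.00281, both with overlap. Gnal, a G protein of striatal neurons, was called lower at -0.396 ± 0.204 with overlapping arrays. The difference was -0.207 without Orz 1, and the call was lost without Orz 1 or any 1 of the vehicle arrays.

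Mid1 had the largest difference of all called genes. It encodes a microtubule-associated ubiquitin ligase and is in no list. It deviated by 64.2, 44.6 and 67.2 milliunits in the treated arrays and by 17.9, 27.03 and -44.9 in the vehicle arrays, a difference of 58.7 ± 21.9. Treated arrays were all above vehicle arrays, and the difference was 36.2 without Veh 3. These values come from its brightest probe set. All 3 of its probe sets had a positive difference, but the others differed by only 0.000486 and 0.00533 and were not called. Erdr1, named after its values were seen, lies like Mid1 at the pseudoautosomal end of the mouse X chromosome. It was called higher at 22.0 with overlapping arrays and Veh 3 lowest. Tesc, a calcium-binding protein, and 4930447C04Rik were called higher at 0.344 ± 0.167 and 0.821 ± 0.409 with no overlap, and both were highest in Orz 3. Without Orz 3 the differences were 0.174 and 0.3998. The call of Tesc was lost without any 1 of the treated arrays, and that of 4930447C04Rik without Orz 1 or Orz 3. Zic4, a zinc finger factor, was called higher at 0.946 ± 0.686 and was 0.206 without Orz 3, and its call too was lost without any 1 of the treated arrays.

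The genes with the smallest limma p had small, even differences, and none was called by rank product. In the higher direction they were Abca13, Mlf1, Tmem212, Ftx and Ankrd6, with differences of 0.0147, 0.0661, 0.0809, 0.00469 and 0.00439 milliunits. Mlf1, for example, deviated by 0.0796, 0.0650 and 0.0537 against 0.000195, -0.00139 and 0.001195. In the lower direction they were Flot1, Iqcm, Rala, Ipo13 and Csrp1, with differences of -0.00928, -0.00534, -0.00419, -0.00823 and -0.00657. The limma adjusted p was 0.709 for each of these genes.

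The nanoparticle arm, with its own 3 treated and 3 vehicle arrays in hypothalamus, had 109 probe sets called higher (0.242%) and 331 lower (0.734%), and 0.214% and 0.808% of genes. Oxt differed by 0.000323 and Vip by 4.13e-05 milliunits there, and neither was called. Crh and Trh were called higher in both arms, at 0.0805 and 0.0483 in the nanoparticle arm, and Slc6a3 was called lower in both, at -22.97 there. Fos was called higher there at 5.35. Of the probe sets called higher with regular γ-oryzanol, 5 were also called higher in the nanoparticle arm (6.67% of 75 and 4.59% of 109), and 6 were called lower there (8% of 75 and 1.81% of 331). Of those called lower, 22 were called lower in both arms (12.7% of 173 and 6.65% of 331) and 10 were called higher there (5.78% of 173 and 9.17% of 109), among them probe sets of Fos, Shox2 and Gbx2. Calls in the same and in opposite directions thus both occurred. DFW was apparently run for each arm on its own, so differences in milliunits may not share a scale between the arms. The interaction in limma nevertheless pooled the hypothalamus arrays of both arms. By it, the difference between the arms passed an adjusted p of 0.05 for 2 of 45101 probe sets, 0.00443%. They were a probe set of Supt7l and 1 without a symbol, both with an adjusted p of 0.0113, and their differences in the regular arm were 0.000417 and 0.00866 milliunits. The adjusted interaction p was 0.184 for Oxt and 0.803 for Vip, so a difference between the arms was not shown for these peptides.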

How the data were processed

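Total RNA from hypothalamus was hybridized to Affymetrix Mouse430_2 arrays. The authors deposited log2 signals that they computed from the probe intensities with DFW, apparently for each tissue and arm on its own, with no version stated in the sources used here. The 4 deposited arm tables, with 24 columns under animal codes that no label maps to a sample, were not used. Of 45101 probe sets, 34958 had 1 gene symbol, 932 several and 9211 none in the platform annotation, and each of 18194 genes was read from its brightest probe set over the hypothalamus arrays.

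No scan date or batch was given in the sources used here, and the number of arrays limits the precision. Rank product was run over the 9 treated and vehicle pairs with 100 permutations, at pfp under 0.05. limma 3.58.1 in R 4.3.3 gave standard errors, Benjamini-Hochberg adjusted p-values and the interaction between arms. Rank product was run in Python 3.11.15 with numpy 2.4.6, and both were tested on simulated data. Lists were described by counts only, with no test.

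Genes were named by rule. The rule took, per direction, the 8 called genes of largest difference without overlap and the 5 of smallest limma p, up to 4 called genes per list, the genes that the study measured by RT-qPCR, the recurrent signalling molecules and the defining peptides. Further genes of the lists are named as examples, and genes outside the rule and the lists are marked in the text. The members and the lists were chosen with earlier results of these data known.

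Shared replicate numbers were checked for pairing. Deviations of same-numbered arrays correlated at 0.583, -0.442 and 0.144, and standardized deviations at 0.143, 0.0955 and 0.0527. Neither measure was over 0.1 in every pair, so the numbers were not taken to pair animals. Alternatives were the leaving out of each array, quantile normalization, median centring, the brighter part of the probe sets, a standardized rank product, a stricter pfp, limma settings, the methods' t-test, the mean over a gene's probe sets and a replicate block.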

Additional observations from a re-analysis of the deposited data

How the results depend on the processing

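The numbers of probe sets called by rank product moved with most settings. Against 75 higher and 173 lower, they were 6 and 112 after quantile normalization, 21 and 76 in the brighter part of the probe sets, 211 and 72 with a standardized rank product (21 and 9 shared), 13 and 70 at pfp under 0.01, and 47 and 54 when no overlap of arrays was also required. Median centring left 75 and 173. limma gave 0 in each direction after adjustment, also with an intensity trend and robust variance and with a replicate block. The methods' t-test gave 1382 higher and 1103 lower unadjusted and 0 and 0 after Benjamini-Hochberg adjustment. Leaving out 1 array gave 12 to 75 higher and 24 to 453 lower. With the replicate number as a block over 3 same-numbered pairs, 102 were called higher and 214 lower (70 and 158 shared), but the arrays share only a number. The interaction between arms passed for 1 probe set with the replicate block, in place of 2.

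Leaving out 1 array turned the sign of some called differences, in milliunits. They ranged from -6.23 to 0.772 for Cck, from -11.6 to 1.33 for Fos, from -2.83 to 3.11 for Sgk1, from -5.36 to 1.14 for Rora and from -102.5 to 3.30 for Prkcd. They ranged from -6.16 to 1.37 for Prkch, from -13.0 to 8.02 for Lhx9, from -65.1 to 6.53 for Synpo2, from -33.0 to 14.8 for Tnnt1 and from -10.4 to 54.9 for Cga. Averaged over all probe sets of the gene, the difference was 1.27 for Lhx9 and -0.213 for Plcb1. Tnnt1 was called higher with the replicate block, at a difference of -10.5, and Cga was called lower without Orz 2, at 22.7, so both calls turned against the sign of the mean. Causes were not tested.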
